A study of Zea mays with 9 samples.

Results

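Transcripts lowered in maize roots by both organic nitrogen sources, compared with inorganic nitrogen, are described here. They were chosen from the array signals themselves. On every array the log2 signal of a spot was taken relative to the log2 of the 75th percentile of that array, which is called the level throughout. A transcript was taken when all 3 arrays of seedlings fed free amino acids (Aa) and all 3 arrays of seedlings fed a protein hydrolysate (Bio) lay below all 3 arrays of seedlings fed inorganic nitrogen (N), when its mean was lower by at least 1 on the log2 scale in both, and when the scanner software called it well above background on all 3 N arrays. The rule was met by 225 transcripts, of which 4 belong to identifiers that are not reported here. The remaining 221 members came from 221 genes and made up 0.561% of the 39372 transcripts on the array. Because Aa vs. N and Bio vs. N chose the members, their sizes in these comparisons are a description without a test.

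The roots came from seedlings of the Pioneer hybrid P0423, recorded as 4 days old and treated for 3 days in diluted nutrient solution. The study's methods place germination and a day in calcium sulfate solution before the treatment. The recorded age may therefore be that at the start of treatment. The N seedlings received NH4H2PO4, a salt that also supplies phosphate, the Aa seedlings free amino acids blended to the make-up of the hydrolysate, and the Bio seedlings a protein hydrolysate of cow connective tissue from the company SICIT2000. Total nitrogen was 11.3 mg per litre in each solution. Roots of 24 seedlings were pooled for each replicate, the experiment was run 3 times, and each pool was hybridized to 1 one-colour array with 1 probe per transcript. Every slide held 1 array of each treatment at the same position, so position and treatment cannot be told apart, and the slide number is the replicate number. In pooled whole roots, fewer cells of a type and less RNA per cell cannot be told apart either.

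Plant roots keep a set of defence proteins at hand. Chitinases cut the chitin of fungal walls, thaumatin-like proteins such as zeamatin damage fungal membranes, and inhibitor proteins block the xylanases and proteases of attackers. Maize also makes chemical defences: sesquiterpenes derived from farnesyl pyrophosphate, among them precursors of the zealexins, and benzoxazinoids such as DIMBOA, stored as glucosides. WRKY, MYB and AP2/ERF factors, receptor kinases and ubiquitin ligases act in the signalling that switches such genes, while expansins loosen the wall, aquaporins carry water, and transporters of the PTR family take up small peptides or nitrate.

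For a pair of members the study designed oligonucleotides for quantitative RT-PCR, which give the exact stretch by which each can be measured again. They are given 5′ to 3′ in lower case, first the forward and then the reverse primer, for the wall protein GRMZM2G024996 and for the peptide transporter GRMZM2G347457.
GRMZM2G024996 forward: ctgcgtagcgaatagcgatca
GRMZM2G024996 reverse: cttgctaccaacgcagtgtat
GRMZM2G347457 forward: caatcggcgttgccattact
GRMZM2G347457 reverse: tgagcccgctgttgatttact

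The first of these had the largest differences of all members. GRMZM2G024996_T01, which codes for a glycine-rich protein of a class laid down in cell walls, had levels of 4.83, 4.43 and 3.76 on N arrays 1 to 3, of 1.09, -3.0 and -3.01 on the Aa arrays and of -0.79, 2.70 and -1.70 on the Bio arrays. The N arrays stood close together, while the organic arrays covered a wide range, with Bio2 and Aa1 nearest to N. The means were 5.98 lower in Aa and 4.27 lower in Bio on the log2 scale, which is 63.1-fold and 19.3-fold. Of its 9 spots, 3 were marked as irregular by the scanner software, 2 of them in N and 1 in Aa. With marked spots left out, too few N spots remained for it to meet the rule. The peptide transporter (GRMZM2G347457_T01) had levels of -2.84, -1.73 and -1.26 in N, of -3.68, -3.11 and -2.98 in Aa and of -4.74, -3.41 and -3.05 in Bio. Its lowest N array lay just above the highest organic array, and the means were 1.32 lower in Aa and 1.79 lower in Bio. On 1 of the Bio arrays it was not well above background.

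Most members differed far less than the glycine-rich wall protein. The median difference was 1.53 between N and Aa and 1.57 between N and Bio, against 0.01 and -0.03 for all transcripts. A difference of 2 or more (4-fold) was found for 50 members in Aa, for 57 in Bio and for 34 in both, and of 3 or more (8-fold) for 2 in both. For 124 members both differences were under 1.5. All 6 organic arrays lay below all N arrays for 886 transcripts, or 2.25% of the array. The N arrays stood above every Aa array for 8.22% and above every Bio array for 5.67% of all transcripts. The gap between the lowest N array and the highest organic array was narrow, with a median of 0.30 over the members and a range from 0.00 to 1.47. In the limma fit over all transcripts no transcript was called in Aa vs. N or in Bio vs. N (0% in each), at an adjusted p of at most 0.01 and a difference of at least 1. Unadjusted p-values under 0.05 went with a lower level for 202 of 219 members in Aa (4.28% of all transcripts) and for 210 of 219 in Bio (3.51%). Nothing is read from these counts, because both comparisons were used by the rule.

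**Figure D1:**
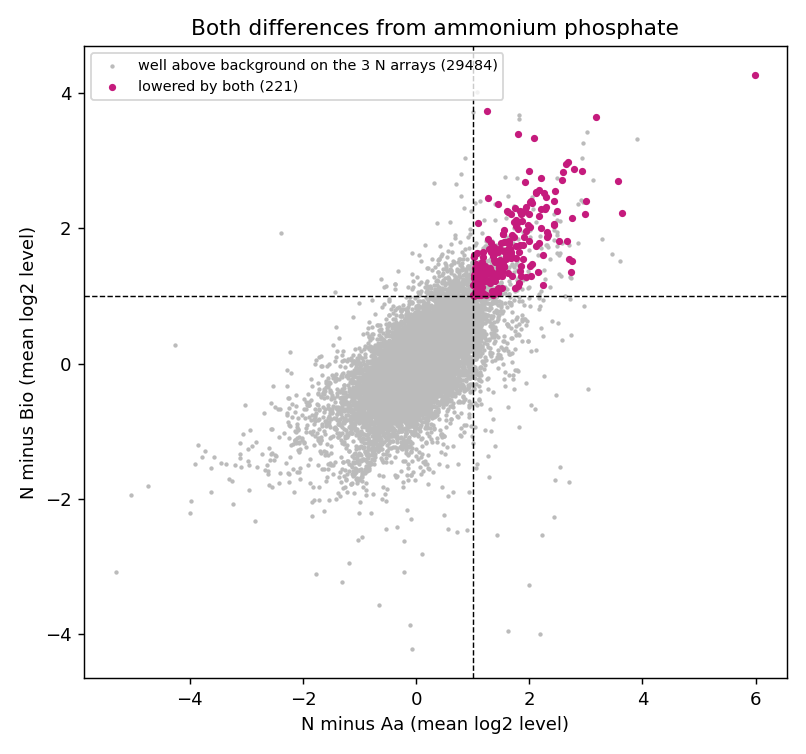
Difference in mean log2 level between N and Aa (horizontal axis) against that between N and Bio (vertical axis), 3 arrays per treatment, for the 221 members in purple and for all 29484 transcripts well above background on the N arrays in grey, with dashed lines at 1. Grey points past both lines are transcripts whose arrays overlapped or that are not reported here. Most members lie between 1 and 2 on both axes, and the glycine-rich wall protein stands alone at 5.98 and 4.27.

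**Figure D2:**
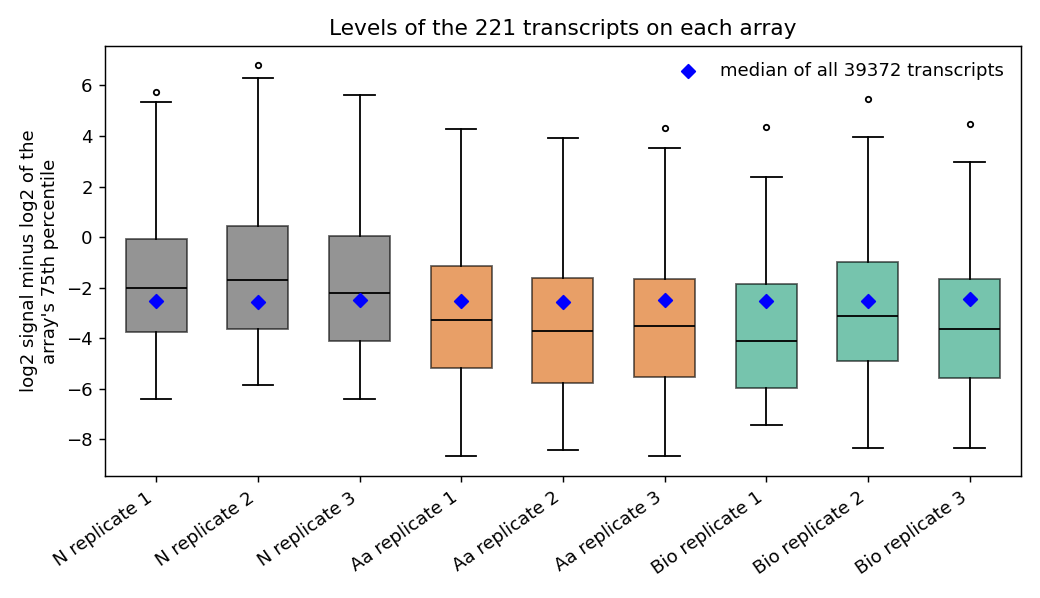
Log2 level of the 221 members on each of the 9 arrays, relative to the 75th percentile of the array, as boxes with the median and quartiles, and with the median of all transcripts as a diamond. The medians of the members lie between -2.22 and -1.68 on the N arrays, between -3.71 and -3.27 on the Aa arrays and between -4.11 and -3.13 on the Bio arrays.

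Chitinases had the largest share of members, but the lists were built differently, so that this rank is not read as a result. Of 8 chitinase transcripts, 4 were members, and all 8 had a lower mean in Aa and in Bio, where 51.5% and 47% of all transcripts on the array were lower. In this and every other list, limma called 0 transcripts in either direction in each of the 3 comparisons. The median difference over the list was 1.33 from N to Aa and 1.63 from N to Bio. Endochitinase B (GRMZM2G005633_T01), a class of enzyme that cuts chitin chains internally, had levels of 3.50, 4.12 and 2.52 in N, of 1.43, 0.74 and 0.50 in Aa and of 0.87, 1.90 and 0.60 in Bio. Its means were 5.61-fold lower in Aa and 4.78-fold lower in Bio. An endochitinase A (GRMZM2G052175_T01) had levels of -0.01, 1.63 and 0.22 in N, of -1.94, -2.03 and -2.27 in Aa and of -4.11, -0.57 and -2.42 in Bio. Here the Aa arrays lay close together, while Bio1 and Bio2 marked the lowest and the highest of the organic arrays. It was 6.46-fold lower in Aa and 7.87-fold lower in Bio. A second endochitinase A probe (GRMZM2G122708_T01) followed it almost array for array, with a largest difference of 0.22, and the array may not separate these transcripts. The endochitinase A listed as chiA (GRMZM2G051943_T01) had levels of 3.31, 3.29 and 2.13 in N, of 1.32, 1.24 and 1.33 in Aa and of 0.64, 2.02 and 0.68 in Bio. Its N3 array lay only slightly above Bio2, and the differences of 1.61 and 1.8 were smaller. Of the 8 chitinases, 6 are in tables that the study drew up from these arrays and are no independent evidence of direction. The other 2, which are not members, had median differences of 0.74 and 1.07.

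Pathogenesis-related proteins and inhibitors gave 10 members out of 22 transcripts. In this list 19 had a lower mean in Aa and 18 in Bio, with median differences of 1.31 and 1.34, and 21 of the 22 are in the study's tables. Zeamatin (GRMZM2G374971_T01), the antifungal thaumatin-like protein of maize, had levels of 4.73, 5.10 and 3.97 in N, of 3.09, 3.22 and 3.34 in Aa and of 2.02, 3.95 and 2.98 in Bio. It was 2.61-fold lower in Aa and 3.07-fold lower in Bio, but N3 and Bio2 differed by only 0.02. Xylanase inhibitor protein 1 (GRMZM2G447795_T01), of a family that blocks fungal xylanases, showed a wider gap, with levels of 4.26, 4.50 and 4.04 in N, of 2.30, 2.33 and 2.54 in Aa and of 0.98, 3.14 and 2.35 in Bio. Its means were 3.68-fold lower in Aa and 4.32-fold lower in Bio. A pathogenesis-related protein that the gene table lists as PR10 (GRMZM2G112524_T01) had levels of 2.76, 3.28 and 2.53 in N, of 1.86, 1.0 and 1.70 in Aa and of 1.65, 2.50 and 1.19 in Bio. The N3 array again lay only slightly above Bio2, with differences of 1.34 and 1.08.

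The other members of this list were taken up after their values were seen. Both transcripts described as Win1, after the wound-induced protein of potato, were members: GRMZM2G117989_T01 was lower by 2.21 in Aa and 2.01 in Bio, and GRMZM2G419675_T01 by 2.03 and 2.41. A further pathogenesis-related protein (GRMZM2G117942_T01) had differences of 1.62 and 1.70. Cysteine proteinase inhibitors, or cystatins, restrain papain-type proteases, and both cystatin members lay on chromosome 1, 2 annotated genes apart in the gene table. The first (GRMZM2G401328_T01) had levels of 2.30, 2.27 and 2.08 in N, of 0.99, 1.55 and 0.91 in Aa and of -0.04, 1.75 and 0.94 in Bio. The second (GRMZM2G148925_T01) was lower by 1.39 in Aa and by 1.22 in Bio. Among the 9 transcripts that the gene table names as cystatins, 8 had a lower mean in Aa and 8 in Bio, but the median differences were only 0.21 and 0.40. A serine endopeptidase inhibitor (GRMZM2G108847_T01) stood close to the limit of the rule, with differences of 1.15 and 1.01, and a defense-related protein (GRMZM2G017116_T01) had 1.05 and 1.46. The defense-related protein was not well above background on all 9 arrays. With the local background subtracted and 50 added, its differences were 0.22 and 0.04.

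Terpenoid synthesis contributed an enzyme of the common precursor and a pair of sesquiterpene cyclases. Farnesyl pyrophosphate synthetase (GRMZM2G098569_T01), which makes the substrate of all sesquiterpenes, had levels of 2.01, 0.30 and -0.75 in N, of -1.90, -2.16 and -1.74 in Aa and of -2.89, -1.04 and -2.16 in Bio. The N arrays were spread widely, and N3 came nearest to Bio2. It was 5.47-fold lower in Aa and 5.85-fold lower in Bio. (S)-beta-macrocarpene synthase (GRMZM2G028306_T01), which makes the hydrocarbon from which zealexins are derived, had levels of 3.64, 4.89 and 3.78 in N, of 2.49, 1.57 and 2.49 in Aa and of 0.41, 3.11 and 1.99 in Bio. Its means were 3.78-fold lower in Aa and 4.81-fold lower in Bio. Terpene synthase 11, a putative sesquiterpene cyclase (GRMZM2G127087_T01), had levels of 2.90, 3.84 and 3.12 in N, of 1.79, 0.67 and 1.41 in Aa and of -0.37, 2.07 and 1.52 in Bio. These values rest on spots of which 7 out of 9 were marked as irregular. Of the 9 transcripts of the list, all from the study's tables, 8 had a lower mean in Aa and 7 in Bio, with median differences of 1.78 and 1.38.

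The benzoxazinoid list of 3 transcripts, all from the study's tables, held 1 member. DIMBOA-Glc O-methyltransferase BX10b (GRMZM2G093092_T01), which methylates the glucoside of DIMBOA, had levels of 1.23, 2.27 and 1.55 in N, of -0.01, -0.55 and 0.62 in Aa and of -0.66, 0.87 and -0.23 in Bio. Its means were 3.16-fold lower in Aa and 3.22-fold lower in Bio. The 2 other transcripts of this list had a higher mean in both organic treatments. A different picture came from the 8 genes that the gene table names as benzoxazinoid genes, among which none was a member: 8 had a lower mean in Aa and 8 in Bio, with medians of 1.19 and 0.40.

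Cytochromes P450, which oxidize many secondary metabolites, gave 4 members out of 27. The pair annotated as CYP81A4 carried the highest levels among them. GRMZM2G154870_T01 had levels of 3.35, 4.42 and 3.47 in N, of 2.12, 1.51 and 2.33 in Aa and of 0.72, 2.62 and 1.52 in Bio. It was 3.40-fold lower in Aa and 4.37-fold lower in Bio. GRMZM2G118809_T01 stayed within 0.42 of it on every array, so that these 2 may not be independent measurements. CYP96D3 (GRMZM2G022996_T01) had differences of 1.1 in Aa and 2.08 in Bio. Over the whole list 15 transcripts had a lower mean in Aa and 16 in Bio.

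Glycosyltransferases, which attach sugars to such products, gave 5 members out of 21. GRMZM2G095280_T01 had levels of 0.41, 1.88 and 1.29 in N, of -0.23, -0.32 and -1.18 in Aa and of -1.61, 0.13 and -0.17 in Bio. The N1 array was close to Bio2, and the differences were 1.77 in Aa and 1.74 in Bio. For GRMZM2G007012_T01 they were 1.91 and 1.88, and for GRMZM2G451975_T01 they were 1.58 and 1.55. The list as a whole had median differences of 1.33 and 1.15, and since all of it is in the study's tables these are no independent evidence of direction.

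Transcription factors came from lists that were built differently. All 27 cytochromes P450 and all 21 glycosyltransferases are in the study's tables of changed transcripts, against 9 of 25 WRKY and 20 of 76 MYB factors, so that the shares of members cannot be compared between these lists. The WRKY list held 2 members, with median differences of 0.07 and -0.03, and the MYB list 2 members, with 0.09 and -0.03. None of the 16 WRKY and 56 MYB factors outside the study's tables was a member. However, 184 of the 221 members are among the 1687 transcripts with a description in those tables. Members were thus rare outside them, and this count is not read as a result. WRKY23 (GRMZM2G143204_T01) had levels of 0.74, 1.18 and 0.52 in N, of 0.22, -0.20 and -0.68 in Aa and of -0.93, 0.26 and 0.01 in Bio. Its 2.05-fold lower mean in both Aa and Bio was just past the limit of the rule. WRKY49 (GRMZM2G453571_T01) had differences of 1.42 and 1.52. A MYB-related factor (AC199820.4_FGT006) had differences of 1.61 and 2.26 and was not well above background on 1 Bio array. Another MYB factor (GRMZM2G083239_T01) was well above background on 1 Aa array and on no Bio array. It was therefore at least 3.36-fold higher in N than in Bio, set against the lowest signal well above background.

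AP2/ERF factors, many of which respond to ethylene, gave 2 members out of 14, all from the study's tables, with list medians of -0.31 and -0.52. Of the 34 genes named EREB in the gene table, 21 had a lower mean in Aa and 18 in Bio, with medians of 0.05 and 0.02. GRMZM2G084264_T01 had levels of -0.34, 0.19 and 0.04 in N, of -0.90, -1.06 and -2.67 in Aa and of -2.47, -1.0 and -2.01 in Bio. It was lower by 1.5 in Aa and by 1.79 in Bio, and GRMZM2G002119_T01 was lower by 2.05 and 1.47. A bHLH factor (GRMZM2G150729_T01) with differences of 1.01 and 1.02 and a NAC factor (GRMZM2G111770_T01) with 1.27 and 1.84 were the only members from lists of 57 and 14. The NAC factor was not well above background on all 9 arrays. With the local background subtracted and 50 added, its differences were 0.33 and 0.12. In the bHLH list 23 had a lower mean in Aa and 20 in Bio, with medians of -0.06 and -0.08. In the NAC list 9 and 4 did, with medians of 0.1 and -0.82. Of these lists, 16 of the 57 and all 14 are in the study's tables.

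Signalling proteins were represented by kinases and ubiquitin ligases, in lists drawn wholly from the study's tables. Of 32 protein kinases 2 were members, among them a PERK1-like receptor kinase (GRMZM2G338376_T01), related to kinases that respond to wounding in Brassica. Its levels were -2.95, -2.82 and -3.52 in N, -4.78, -5.57 and -5.45 in Aa and -6.05, -4.89 and -6.04 in Bio. The N arrays lay more than 1 above all others, but on the Bio side only 1 array was well above background. Ubiquitin ligases, which tag proteins for breakdown, gave 3 members out of 7. A U-box protein (GRMZM2G127690_T01) was lower by 1.64 in both Aa and Bio. The RING-H2 protein ATL2G (GRMZM2G433908_T01), of a family known for fast responses to chitin in Arabidopsis, was lower by 1.89 and 1.75. CMPG1 (GRMZM2G055052_T01), first described in parsley as an early response to a fungal elicitor, was lower by 1.0 and 1.17.

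Cell wall proteins gave 6 members out of 31, all from the study's tables. Besides the glycine-rich protein, these included beta-expansin 1a (GRMZM2G176595_T01), which loosens grass cell walls. It had levels of 5.74, 6.28 and 5.64 in N, of 4.27, 3.80 and 4.32 in Aa and of 4.36, 5.47 and 4.47 in Bio. Bio2 came close to the lowest N array, and the difference was 1.75 in Aa and 1.12 in Bio. An extensin-like protein (GRMZM2G040517_T01), of a class of glycoproteins that crosslink in the wall, had levels of 4.37, 4.42 and 3.74 in N, of 3.25, 2.60 and 2.18 in Aa and of 2.39, 2.81 and 2.28 in Bio. The gap from the lowest N array to the highest organic array was 0.49, and 6 of the 9 spots of this transcript were marked as irregular. The remaining 3, named after their values were seen, were beta-expansin 2 (GRMZM2G148485_T01) with differences of 2.43 and 2.05, a xyloglucan endotransglucosylase/hydrolase (GRMZM2G392125_T01) with 1.15 and 1.35, and expansin-like A3 (GRMZM2G114322_T01) with 1.02 and 1.27. Of the 16 genes named as expansins in the gene table, 9 had a lower mean in Aa and 10 in Bio, with median differences of 0.08 and 0.39. Their summed signal relative to the 75th percentile, to which bright members contribute most, was 121 to 164 on the N arrays, 41.8 to 62.9 on the Aa arrays and 60.8 to 104 on the Bio arrays.

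Hormone-related members came from the lists for auxin and jasmonate and from outside them. The auxin list, with 12 of its 14 transcripts from the study's tables, gave 4 members. Among them was SAUR31 (GRMZM2G420812_T01), of a family of small transcripts that auxin raises quickly. Its levels were -0.98, 0.12 and -0.57 in N, -1.86, -1.78 and -2.15 in Aa and -2.10, -1.09 and -2.19 in Bio. N1 and Bio2 nearly met, and the means were lower by 1.46 in Aa and 1.32 in Bio. A WAT1-related protein (GRMZM2G065230_T01), of a family that includes a vacuolar auxin exporter of Arabidopsis, was lower by 1.46 and 1.43, and a BIG GRAIN 1-like protein (GRMZM2G173732_T01) by 1.58 and 1.59. In the jasmonate list of 5 transcripts, all from the study's tables, jasmonate O-methyltransferase (GRMZM2G050321_T01) was a member with differences of 1.56 and 1.43. It was well above background on only 1 Aa array and 2 Bio arrays. With the local background subtracted and 50 added, its differences were 0.39 and 0.15. Of the 5 transcripts, 3 had a lower mean in Aa but only 1 in Bio, with median differences of 0.05 and -1.1. Of the 18 lipoxygenases and 12-oxophytodienoate reductases and the 21 TIFY genes in the gene table, none was a member. Since members made up 0.561% of all transcripts, this is not read as a result. Outside the lists, and named after their values were seen, a jasmonate-induced protein (GRMZM2G030790_T01) was lower by 1.67 and 1.59, and a gibberellin-regulated protein (GRMZM2G164090_T01) by 2.11 and 1.74.

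Transport was represented by 3 peptide transporters out of 8 and by 3 aquaporins and ion carriers out of 7. Both lists hold only transcripts from the study's tables of changed transcripts, so that these are not shares of the gene families. The aquaporin TIP1-2 (GRMZM2G168439_T01), a water channel of the vacuole membrane, had levels of 4.11, 4.22 and 3.64 in N, of 2.63, 2.02 and 1.90 in Aa and of 1.94, 2.88 and 2.19 in Bio. Its means were 3.49-fold lower in Aa and 3.14-fold lower in Bio, with 5 of 9 spots marked. Of the 19 TIP and PIP aquaporin genes of the gene table, 8 had a lower mean in Aa and 12 in Bio, with median differences of -0.03 and 0.05. Besides GRMZM2G347457_T01, the transporters GRMZM2G137421_T01 and GRMZM2G122712_T01 were lower by 1.06 and 1.18 in Aa and by 1.09 and 1.57 in Bio. The former, listed here by its description as PTR2, is known as ZmNRT1.2, a low-affinity nitrate transporter. A vacuolar cation/proton exchanger (GRMZM2G010779_T01) had differences of 1.85 and 1.29 and a chloride channel (GRMZM2G072955_T01) of 1.05 and 1.01. Neither was well above background on all 9 arrays. With the local background subtracted and 50 added, the differences were 0.33 and 0.05 for the exchanger and 0.25 and 0.02 for the channel. The lists for phosphate supply, ammonium assimilation and nitrate use, of 4, 3 and 2 transcripts matched by their descriptions, held no member, and ZmNRT1.2 is not in the last of these. A lower mean in Aa was found for 2, 2 and 1 of their transcripts, and in Bio for 3, 1 and 0. For phosphate supply the median differences were 0.09 and 1.0. All transcripts of these lists are in the study's tables, as are the 6 small heat shock proteins, which hold unfolded proteins. Of the latter 1 was a member (GRMZM2G158232_T01), lower by 1.80 in Aa and 1.15 in Bio. Of the 11 genes named as phosphate transporters in the gene table, 8 had a lower mean in Aa and 8 in Bio, with median differences of 0.33 and 0.74.

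**Figure D3:**
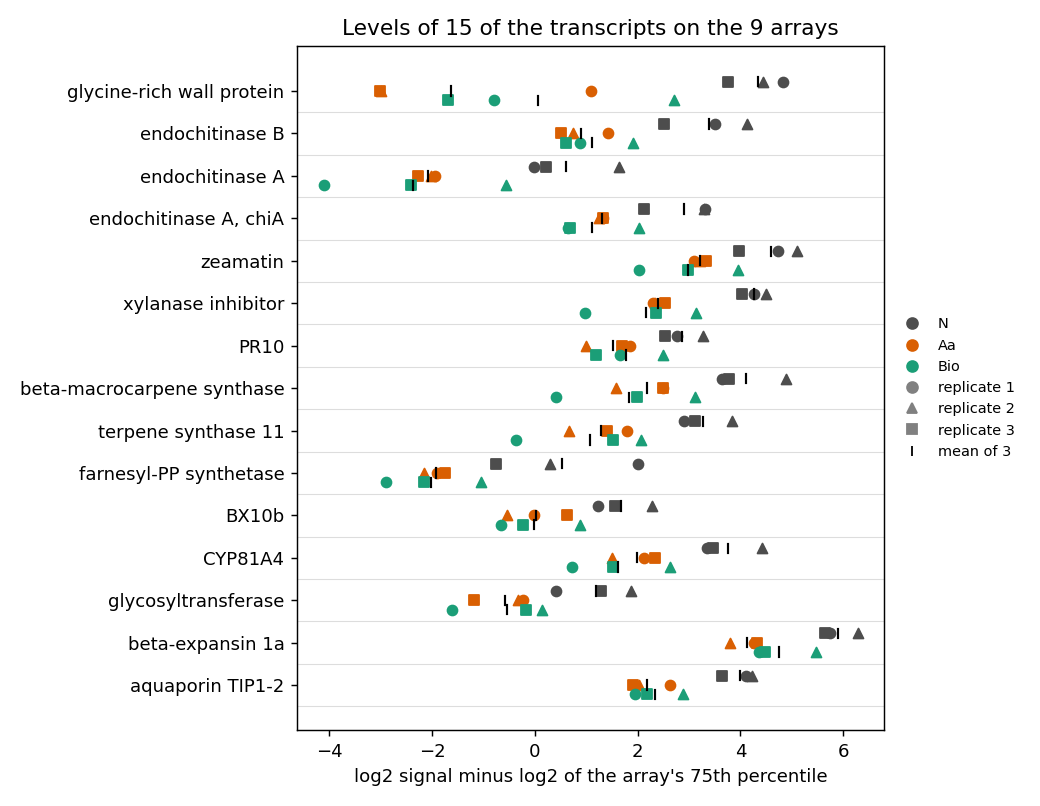
Log2 level on each of the 9 arrays for 15 members named in the text, relative to the 75th percentile of the array. Each point is an array, with colours for treatments, shapes for replicates and a bar for the mean of 3. The N points lie above the Aa and Bio points for each member by the rule, and the highest Bio point is often close to the lowest N point, as for zeamatin with a gap of 0.02.

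Several of the members with the largest differences in both treatments were without a known role. GRMZM2G320287_T01, matched only to a rice locus, had levels of -2.48, -1.15 and -0.77 in N, of -4.40, -4.71 and -4.83 in Aa and of -6.76, -3.63 and -4.92 in Bio. It was 9.06-fold lower in Aa and 12.4-fold lower in Bio, although 1 Bio array was not well above background. GRMZM2G086410_T01, which has no description, had levels of -0.87, 1.22 and 0.14 in N, of -4.25, -1.99 and -2.07 in Aa and of -4.17, -0.95 and -2.93 in Bio. The arrays of each treatment were spread over more than 2 units, with N1 just above Bio2. GRMZM2G335685_T01, an uncharacterized protein, was more even, with levels of -2.0, 0.13 and -0.64 in N, of -3.43, -3.74 and -3.71 in Aa and of -4.14, -3.58 and -3.41 in Bio. Its N arrays lay more than 1 above all others. The transcripts AC233864.1_FGT009, which the study annotates with a response to auxin, GRMZM2G082504_T01 and GRMZM5G889225_T01 completed the first 10 with smaller differences of 2.70, 2.59 and 2.58, and each was well above background on only some of the organic arrays. Of the 221 members, 184 had a description from the study, of which 64 read only as uncharacterized, and 58 fell into one of the lists.

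Some further members were picked after their values were seen, since they belong to the same processes. GRMZM2G122018_T01, which the gene table lists under the older name GLP2 of a germin-like protein, had levels of 5.33, 6.79 and 5.19 in N, of 3.55, 3.94 and 3.54 in Aa and of 1.66, 3.89 and 1.78 in Bio. It showed a clear gap to N, with differences of 2.09 and 3.33, and Bio2 near the Aa arrays. However, 3 of its spots were marked as irregular, 2 in Aa and 1 in Bio, and without marked spots it did not meet the rule. A bidirectional sugar transporter of the SWEET family (GRMZM2G168365_T01) was lower by 1.84 in Aa and 2.26 in Bio, and a second one (GRMZM5G872392_T01) by 1.11 and 1.02. The last enzyme of ethylene synthesis, a 1-aminocyclopropane-1-carboxylate oxidase (GRMZM2G013448_T01), was lower by 1.32 and 1.70. An MLO-like protein (GRMZM2G033665_T01), of a family in which loss of a member protects barley from powdery mildew, was lower by 1.04 and 1.34. A chlorophyllase (GRMZM2G170734_T01), of a class of enzymes that cleave the side chain of chlorophyll, was lower by 2.18 and 2.19.

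The rule has a limit, and members lie on it. Just inside were CMPG1, GRMZM5G828060_T01 with differences of 1.03 and 1.0, and the inhibitor GRMZM2G108847_T01. Just outside were GRMZM2G111415_T01 with 1.23 and 0.99, AC214137.3_FGT003 with 1.81 and 0.99, and GRMZM2G025989_T01 with 0.99 and 1.49.

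Many members were dim in the organic treatments. Well above background on all 9 arrays were 124 of the 221. In Aa, 15 members were well above background on 2 arrays, 26 on 1 and 18 on none, and in Bio 44, 32 and 21. On none of the 6 organic arrays were 12 members. For the 18 dim in Aa, N was higher by at least 1.07-fold to 3.53-fold, with a median bound of 2.22. Of the 21 dim in Bio, 19 had a bound, from 1.15-fold to 3.36-fold with a median of 1.65, and for the other 2 no fold can be given. No spot was saturated. Over whole arrays, between 27019 transcripts (on Bio1) and 32309 were well above background, so that the array with the lowest member levels was also the one with the fewest detected transcripts. The part of this in the members' Bio values was not tested. When the local background was subtracted from the raw spots and 50 added, the median differences of the members became 0.84 and 0.79, and 80 of 221 kept both differences of at least 1. Both differences stayed above 0 for 212. The named chitinases, zeamatin, the xylanase inhibitor, PR10, the terpenoid enzymes, BX10b, GRMZM2G154870_T01, beta-expansin 1a and TIP1-2 still met the rule on these values, whereas the peptide transporter GRMZM2G347457_T01, WRKY23 and the PERK1-like kinase did not. The normexp correction compressed array N1, on which the span of levels without the extremes was 0.32 log2 units, against 11.24 as reported. Failing the rule under it is therefore hard to read. With this correction, which raised the median of all transcripts for N minus Aa to 0.48, 36 members met the rule. The nearly identical endochitinase A pair and GRMZM2G347457_T01 were among them, but the glycine-rich wall protein, endochitinase B, chiA, zeamatin, the xylanase inhibitor, PR10, the terpenoid enzymes, BX10b, GRMZM2G154870_T01, beta-expansin 1a and TIP1-2 were not.

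The arrays of a treatment did not carry the members alike. The median SD over the 3 replicates was 0.49 in N, 0.45 in Aa and 0.68 in Bio, against 0.22, 0.24 and 0.32 for all transcripts well above background on the N arrays. Bio2 was the highest Bio array for 159 of the members (71.9%), against 27.8% of all transcripts, and Bio1 was the lowest for 139 (62.9%), against 28.9%. The median difference between Bio2 and Bio1 was 1.02 for members and -0.11 for all transcripts. Among the N arrays, N2 was highest for 137 members (62.0%, all transcripts 32.6%), and among the Aa arrays Aa1 was highest for 136 (61.5%, all transcripts 31.1%). N2 and Bio2, which share a replicate number and a slide, were both the highest of their treatment for 103 members, or 46.6%, against 11.6% of all transcripts. For pathogenesis-related proteins and inhibitors this held for 8 of 10 members, and for the chitinases for 3 of 4.

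The same pattern showed in the deviations of each array from the mean of its treatment. The medians over members were -0.13, 0.37 and -0.23 for N1 to N3, 0.25, -0.15 and -0.09 for Aa1 to Aa3, and -0.45, 0.64 and -0.10 for Bio1 to Bio3, while the medians over all transcripts lay within -0.07 and 0.04. Among the 124 members well above background on every array, those of Bio were -0.40, 0.65 and -0.13, as large as over all members. With the background subtracted and 50 added, the medians over members were smaller, -0.11, 0.18 and -0.05 in Bio and -0.12, 0.29 and -0.19 in N. The spread between replicates is part of what the rule used, since it asks for arrays that do not overlap, and these shares are given without a test.

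**Figure D4:**
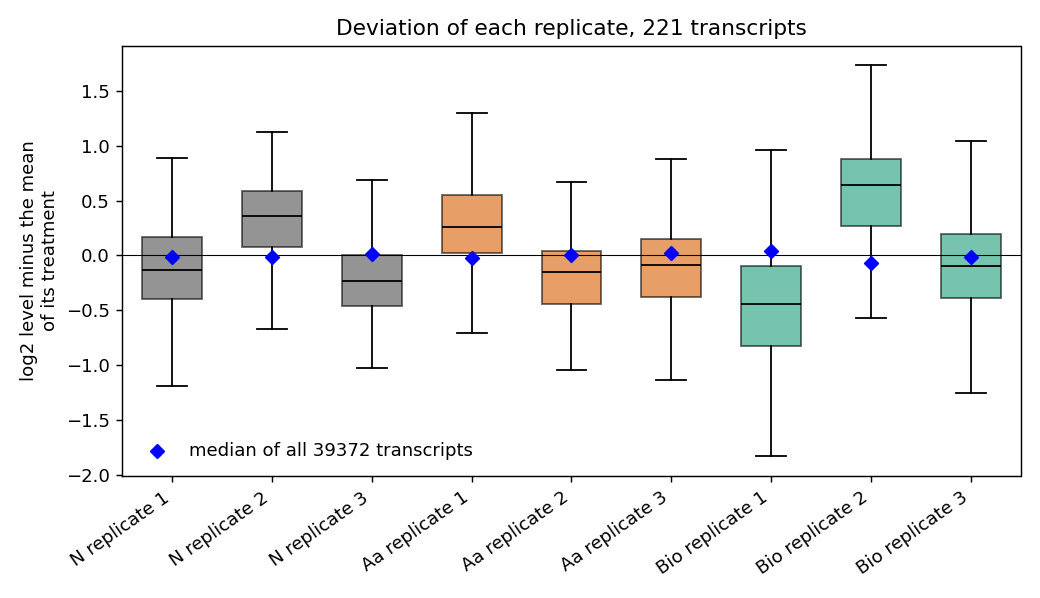
Deviation of each array from the mean of its treatment, in log2 units, over the 221 members, as boxes with the median and quartiles, and with the median of all transcripts as a diamond. Bio2 lies mostly above the Bio mean (median 0.64) and Bio1 mostly below it (median -0.45), with N2 at 0.37.

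Bio vs. Aa was not a comparison of the rule and was tested. The rule did, however, hold every Aa and Bio value of the members below N. The members' shares and spread of Bio minus Aa, here and below, may therefore be shaped by it, which was not tested. In the limma fit of all 9 arrays, with marked spots left out, 0 of the 220 members with a value were called and 0% of all 38619 transcripts with a value (smallest adjusted p 0.79). At an unadjusted p under 0.05, 2 members were higher in Bio and 4 lower, where all transcripts gave 3.12% and 1.79%. With the replicate number, which is also the slide, as a block, 13 members had such a p and again 0 were called. The median of Bio minus Aa was -0.06 over the members and 0.05 over all transcripts. Bio had the higher mean for 92 members, or 41.6%, against 56% of all transcripts. The quartiles were -0.28 and 0.14 for members and -0.18 and 0.31 for all transcripts. Bio was higher by at least 1 for 6 members (2.8% of all transcripts) and lower by at least 1 for 4 (1.56%). That no p passed the threshold does not show that the hydrolysate and the amino acids acted alike. For endochitinase B, Bio minus Aa was 0.23 between the means of all spots but -0.16 in the fit (SE 0.48, limma adjusted p 0.961), which left out 1 irregular spot, so that its direction is not settled. Bio minus Aa was -0.23 for zeamatin (SE 0.47, limma adjusted p 0.939) and -0.35 for (S)-beta-macrocarpene synthase (SE 0.66, limma adjusted p 0.933).

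**Figure D5:**
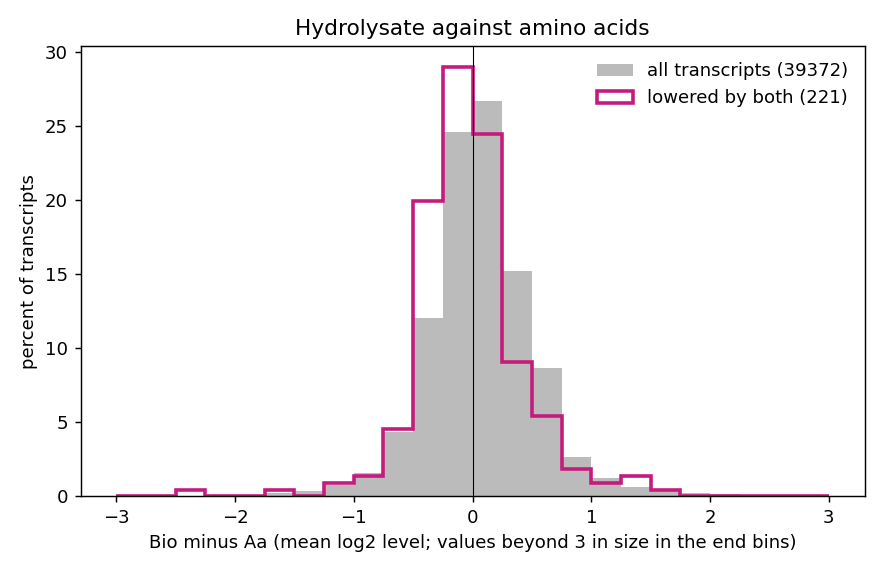
Difference Bio minus Aa in mean log2 level (horizontal axis), as the percent of transcripts per bin of width 0.25, for the 221 members (line) and all 39372 transcripts (grey). The members lie slightly to the left, with a median of -0.06 against 0.05, and a few stand out on either side, down to -2.49.

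Within slides the direction changed. The median of Bio minus Aa over members was -0.81 on slide 1, 0.70 on slide 2 and -0.04 on slide 3, while that of all transcripts lay between 0.01 and 0.06. Bio was above Aa for 33 members on slide 1, for 186 on slide 2 and for 107 on slide 3. Only 10 members were above on all 3 slides (4.52%, all transcripts 21.7%) and 13 below on all 3 (5.88%, all transcripts 14.7%). Within slides the rule fixes the direction of the differences to N, whose medians on slides 1 to 3 were 1.14, 2.06 and 1.43 for Aa and 1.90, 1.36 and 1.51 for Bio.

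Bio and Aa were apart on all arrays for few members. Bio lay above Aa on every array for 3 members (8.94% of all transcripts) and below on every array for 1 (3.74%). Of the 3, beta-expansin 1a had levels of 4.36, 5.47 and 4.47 in Bio and of 4.27, 3.80 and 4.32 in Aa, an order chosen after its values were seen, and Bio was 0.63 higher (SE 0.33, limma adjusted p 0.79). The other 2, BAP2 (GRMZM2G104622_T01) and GRMZM2G413263_T01, were well above background on no Aa array. The transcript below on every array was GRMZM2G148964_T01, without a description, with levels of -0.86, -0.64 and -2.02 in N, of -2.29, -2.53 and -2.48 in Aa and of -4.49, -7.17 and -3.10 in Bio. Bio was 2.49 lower than Aa (SE 0.88, limma adjusted p 0.79), and 2 of the Bio arrays were not well above background. The difference was -1.37 without Bio2, -0.81 with the offset of 50 and -0.40 with normexp. The uncharacterized GRMZM2G090652_T01 was lower in Bio than in Aa (-1.59, SE 0.60, limma adjusted p 0.79), but by less with the offset (-0.75) and normexp (-0.60). In the other direction GRMZM2G361388_T01, uncharacterized as well, had levels of 0.61, 0.30 and -0.85 in N, of -2.23, -4.42 and -4.23 in Aa and of -1.98, -1.33 and -3.34 in Bio. Bio was 1.41 higher (SE 0.72, limma adjusted p 0.79) and the arrays overlapped. Without Aa1 the difference was 2.11, and it was 0.93 with the offset and 0.83 with normexp. For GRMZM2G177982_T01 the difference was 1.38 (SE 0.62, limma adjusted p 0.79), with 1 Aa array and 2 Bio arrays well above background, and it was 2.16 without Bio3, 0.45 with the offset and 0.43 with normexp. For GRMZM2G451300_T01 and GRMZM2G413263_T01, which were well above background on no Bio array and on no Aa array, no fold between Bio and Aa is given. N was at least 1.18-fold higher than Bio for the former and at least 1.74-fold higher than Aa for the latter.

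None of the members was in the marker lists of other cell types. The 5 root cap and endodermis transcripts were all detected in N. Their summed level, as signal relative to the 75th percentile, was 6.39 to 8.65 on the N arrays, 22.1 to 49.8 on the Aa arrays and 11.6 to 30.6 on the Bio arrays, and 0 of the 5 had a lower mean in Aa or Bio. All 5 of these and all 19 green tissue transcripts are in the study's tables of changed transcripts and are no independent evidence of a shift. For the 19 green tissue transcripts it was 11.6 to 27.8 in N, 6.8 to 18.9 in Aa and 26.1 to 137 in Bio, with 16 lower in Aa and 3 in Bio and 1 at background on all arrays. For the 8 grain and scutellum transcripts it was 0.424 to 0.558, 0.769 to 1.48 and 0.403 to 0.864, and for the 3 of dividing cells 0.362 to 0.605, 0.379 to 0.693 and 0.367 to 0.637. The part of these cells in the members' levels was not tested.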

How the data were processed

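RNA from maize roots was measured on 9 one-colour (Cy3) arrays, 3 per treatment, grouped by the sample descriptions. The authors deposited the intensity of each spot from Agilent Feature Extraction 10.5.1.1, after background subtraction and detrending, unscaled between arrays. They also deposited the same intensity values multiplied by a constant for each array so that the 75th percentiles match, and flags, among others for spots well above background or irregular. From the unscaled values the log2 intensity relative to the log2 of the array's 75th percentile (617.1 to 962.1 units) was computed here. The members were found on all spots. The number of arrays limits the precision.

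Bio vs. Aa was tested with limma 3.58.1 in R 4.3.3 on all transcripts and all 9 arrays in 1 fit of the 3 treatments, with irregular spots (1640 to 3226 per array) missing and Benjamini-Hochberg adjustment over all transcripts with a value. A call needed an adjusted p of at most 0.01 and a difference of at least 1 on the log2 scale. The fit was tested on simulated data with large planted changes, which does not show what it can find at the sizes seen here. The replicates are separate runs of the experiment.

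The members and lists were chosen with earlier results of these data known. Named are the 10 members with the largest smaller difference, the 3 brightest in N of each list, the 3 largest differences each way in Bio vs. Aa among members with no irregular spot, and those nearest the limit. Others are marked as named after their values were seen. Lists were matched by words in the study's description or in the RefSeq gene table of a later assembly, which named 104 members, and 14 family lists by RefSeq names were added later. Python 3.11.15 with pandas 2.3.3 was used for the rest. The alternatives were quantile scaling, the percentile over well detected probes, normexp, the scaled table, irregular spots missing or kept, a filter on dim probes, an intensity trend, 2-treatment fits, a replicate block, each array left out, and, added after seeing the data, background subtraction with an offset of 50.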

Additional observations from a re-analysis of the deposited data

How the results depend on the processing

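The number of members depended on the background treatment more than on the scaling. It was 221 as reported, 194 with quantile scaling (184 shared), 232 with the percentile over well detected probes (220 shared), 221 from the authors' scaled table (221 shared) and 217 without irregular spots (206 shared). With the normexp correction it was 78 (36 shared), among them 1 of the 36 members with a mean level of 0 or more over the 9 arrays and 35 of the 185 below. That correction compressed array N1 and moved the median of all transcripts to 0.48 for N minus Aa and 0.34 for N minus Bio, with 1.01 and 0.90 for the members. With the background subtracted and 50 added, an alternative chosen after seeing the data, it was 93 (74 shared), among them 32 of these 36 and 42 of the 185, with medians of all transcripts at -0.05 and -0.16. With members required to be well above background on all 9 arrays it was 124. Leaving out 1 array gave 212 to 491 (487 without N1, 491 without N3, 424 without Bio2), and 130 members met the rule whichever array was left out. The median of Bio minus Aa over members lay between -0.30 (without Bio2) and 0.22 (without Bio1). GRMZM2G451300_T01 turned to 0.16 with normexp and 0.03 with the offset in Bio minus Aa. Calls in Bio vs. Aa were 0 in every limma fit that was run. Same-numbered arrays correlated between 0.009 and 0.343 over all transcripts (other numbers -0.354 to 0.193) and between 0.148 and 0.447 over those well above background on all 9 arrays (other numbers -0.548 to 0.280), so that the pairing is not settled. With a replicate block the calls stayed at 0 in each comparison, and 13 in place of 6 members had an unadjusted p under 0.05 in Bio vs. Aa. Because the slide number is the replicate number, no separate slide block was run. Transcripts near background are not resolved.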
